A study of Mus musculus with 8 samples.

Results

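Transcripts of 10 genes of the NF-kappaB system were followed in mouse leukaemia cells after 24 and 48 h of 4-hydroxytamoxifen (4OHT). They were chosen by gene symbol from the 23361 rows of the deposited expression table. The 5 subunits are Nfkb1, Nfkb2, Rel, Rela and Relb, and the 3 genes listed as inhibitors are Nfkbia, Nfkbiz and Tnfaip3. The other 2 genes, Tnf and Birc3, are targets that feed back on the pathway. All 10 symbols were found, each in 1 row. Of these, 9 reached 1 FPKM (fragments per kilobase, relative to library size) in at least 1 group, and Nfkbiz did not.

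The cells are acute myeloid leukaemias raised from 129S6 bone marrow with the MLL-AF9 oncogene and carry CreERT2, a recombinase that 4OHT activates. One line is Cdc73fl/fl, in which 4OHT excises Cdc73, a gene for a subunit of the PAF1 elongation complex, and the other is Cdc73 +/+. Each was treated with 7.5 nM 4OHT for 24 or 48 h and grown in interleukin 3, which gives 4 groups of 2 biological duplicates, 8 libraries in all. The genotype comparison asks what loss of Cdc73 does to these cells. All 4 groups share MLL-AF9, CreERT2 and 4OHT. The genotypes are separate lines and untreated cells were not analysed here, so a difference that preceded 4OHT cannot be told apart from one that followed excision. The labels name neither the promoter of CreERT2 nor whether a line is 1 clone.

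NF-kappaB is a family of dimeric transcription factors that rest in the cytoplasm, bound by inhibitors of the IkappaB family. Receptors such as those for TNF and for microbial products activate the IkappaB kinases, the inhibitor is destroyed and the dimer enters the nucleus. Among the genes it switches on are its own inhibitors and precursors, which end the signal, and in myeloid cells it drives cytokines, chemokines and survival genes.

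Sequences before a RefSeq start are shown for 5 of the genes because such feedback runs through kappaB sites near the start of a gene. Each stretch is the 150 bases before an annotated start (RefSeq, GRCm38.p6, the assembly of mm10), written 5′ to 3′ on the gene's strand, and capitals mark matches to the NF-kappaB consensus on either strand. The consensus is 10 bases long, with G bases first, then a purine, free positions, pyrimidines and C bases at the end. Overlapping matches were merged.
Nfkbia, chr12:55492648-55492797, minus strand: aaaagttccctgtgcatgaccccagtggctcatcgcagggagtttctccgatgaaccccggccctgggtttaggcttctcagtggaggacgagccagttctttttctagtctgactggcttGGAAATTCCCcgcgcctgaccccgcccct
Nfkb2, chr19:46304587-46304736, plus strand: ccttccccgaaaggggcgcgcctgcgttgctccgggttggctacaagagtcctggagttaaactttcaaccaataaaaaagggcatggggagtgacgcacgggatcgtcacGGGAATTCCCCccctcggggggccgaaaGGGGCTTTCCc
Rel, chr11:23770970-23771119, minus strand: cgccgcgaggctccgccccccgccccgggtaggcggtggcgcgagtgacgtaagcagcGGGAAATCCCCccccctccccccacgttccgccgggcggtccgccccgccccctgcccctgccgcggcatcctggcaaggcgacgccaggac
Tnfaip3, chr10:19015411-19015560, minus strand: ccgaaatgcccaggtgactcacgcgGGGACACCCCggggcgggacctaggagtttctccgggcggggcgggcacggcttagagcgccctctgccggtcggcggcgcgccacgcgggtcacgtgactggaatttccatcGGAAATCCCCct
Tnf, chr17:35202008-35202157, minus strand: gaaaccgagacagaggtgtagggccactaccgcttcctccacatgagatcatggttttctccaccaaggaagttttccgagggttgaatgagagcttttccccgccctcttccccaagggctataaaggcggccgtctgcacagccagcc

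Of the 7 genes with an entry in the promoter table, 4 had a match in such a window: Nfkbia, Nfkb2, Rel and Tnfaip3. These genes have 10 start windows, of which 4 had a match (40%), 1 for each of the 4 genes. Among all 32851 start windows in that table, 4.60% had one. The genes were chosen for their part in the NF-kappaB system, and windows of the same gene are not independent. Nothing is therefore read from the difference between these shares. The match of Nfkbia, GGGAATTTCC on the opposite strand, begins 29 bases before the start. Nfkb2 had one block 39 to 29 bases before its first RefSeq start, with GGGAATTCCC, and a second, GGGGCTTTCC, 11 to 2 bases before it. Rel had GGGAAATCCC at 92 to 83 bases before its start. Tnfaip3 had GGGACACCCC at 125 to 116 bases and GGGGATTTCC, on the opposite strand, at 12 to 3 bases. The windows shown for Nfkb2 and Tnfaip3 lie inside the gene spans given below, which are from GENCODE. They are therefore before the RefSeq start but not before the GENCODE one. No such match lies in the windows of Tnf, Rela and Birc3, which says only that these letters are not in those 150 bases. Nfkb1, Relb and Nfkbiz had no entry. A match is a description of the sequence and not a measured binding site.

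The authors' table gives 1 FPKM value per group with the duplicates combined, so every level below is the authors' group value, with no SD or n, and the spread between duplicates is not seen. A gene is called where the q-value that the authors give for the genotypes is under 0.05. The smallest q in the table is 0.000449 at 24 h and 0.000165 at 48 h, held by 1327 and 3678 genes, so genes at that value cannot be ranked by it. Cdc73 itself stood at 26.2 FPKM for wild type and 5.96 for floxed cells at 24 h, then at 26.9 and 5.45 at 48 h, with those smallest q-values in the authors' deposited table. Cdc73 shares its locus entry with another gene, so the split of reads between them is uncertain. Depth per library is not given. All 7 myeloid markers in the table (Ptprc, Itgam, Csf1r, Mpo, Cebpa, Lyz2 and Elane) were expressed, whereas all 7 T and NK cell markers lay below 1 FPKM in every group, with Cd3e and Ncr1 at 0.

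Tnf showed the largest difference of the 10 genes at both times. Tnf encodes the cytokine tumour necrosis factor and lies on chromosome 17 from 35199381 to 35202007, minus strand (ENSMUSG00000024401.14, mm10). Its FPKM was 2.98 for wild type and 12.8 for floxed cells at 24 h, then 2.72 and 21.0 at 48 h. The floxed level was thus 4.30 times the wild type level at 24 h and 7.72 times at 48 h, each with the smallest q in the authors' deposited table. Both floxed groups lay above both wild type groups. In bulk RNA, more cells that express a gene and more RNA per cell cannot be told apart. Lta and Ltb, which encode the 2 lymphotoxins and lie 1.16 kb and 3.06 kb from Tnf, are described with it for their position. Ltb stood at 0.977 for wild type and 5.96 FPKM for floxed cells at 24 h, then at 1.41 and 16.7 at 48 h, 11.9-fold higher at the later time and called at both. Lta was listed at 0 in both wild type groups and stood at 0.116 and 0.561 FPKM in the floxed groups, with a call at 48 h only. All 3 neighbours were called higher at 48 h, Lta at under 1 FPKM in every group. Without a filter on low values, 26.8% of all tested genes were called higher at that time.

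Birc3 encodes an inhibitor of apoptosis that ubiquitinates signalling proteins at the TNF receptor and is a classical NF-kappaB target. It lies on chromosome 9 from 7848699 to 7873186, minus strand. Birc3 stood at 9.21 FPKM for wild type and 8.47 for floxed cells at 24 h (q = 0.600 in the authors' deposited table), and at 9.55 and 10.9 at 48 h (q = 0.380). It was called at neither time, and with 1 value per group no interval of the difference can be given. Its neighbour Birc2, a related gene 11.6 kb away with the same kind of activity, stood at 4.72 and 7.05 FPKM at 24 h and at 5.59 and 8.78 at 48 h. Birc2 was called higher at both times, 1.49-fold and 1.57-fold.

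Of the 3 genes listed as inhibitors, Nfkbia and Tnfaip3 were higher in floxed cells at 48 h and not called at 24 h. The weakly expressed Nfkbiz was called higher at both times. Nfkbia encodes IkappaB-alpha, the inhibitor that NF-kappaB itself induces. It lies on chromosome 12 from 55489410 to 55492647, minus strand (ENSMUSG00000021025.8). Nfkbia stood at 19.6 FPKM for wild type and 25.8 for floxed cells at 24 h, then at 17.7 and 67.8 at 48 h. That is 1.31-fold at 24 h (q = 0.540 in the authors' deposited table) and 3.83-fold at 48 h (q = 0.00162). Floxed cells at 48 h stood apart from the other 3 groups, which lay between 17.7 and 25.8 FPKM. The table puts Nfkbia in 1 locus entry with 4 other genes, so the split of reads among them is uncertain. Of these, Psma6 stood at 269 and 192 FPKM at 48 h (q = 0.0527), Ppp2r3c at 25.2 and 18.1 and 1110008L16Rik at 7.88 and 3.27. These were lower in floxed cells and not called, although the q of Psma6 was just over the threshold. Mir1198 was listed at 0. Nfkbia was thus the one gene of its entry that was called.

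Tnfaip3 encodes a ubiquitin-editing enzyme that shuts off signalling from the TNF receptor and Toll-like receptors. It lies on chromosome 10 from 19000910 to 19015657, minus strand. Its FPKM was 1.54 for wild type and 1.15 for floxed cells at 24 h (q = 0.0703 in the authors' deposited table), and 1.06 and 2.38 at 48 h (q = 0.000165). The difference was 2.24-fold at 48 h, and the value at 24 h lay on the other side, below wild type, without a call. The ratio of Tnf to Tnfaip3, both per length in FPKM, was 1.94 for wild type and 11.2 for floxed cells at 24 h, then 2.56 and 8.84 at 48 h. Both floxed ratios lay above both wild type ratios.

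Nfkbiz, though listed with the inhibitors, encodes a nuclear IkappaB protein that helps NF-kappaB turn on secondary response genes. It lies on chromosome 16 from 55811375 to 55838899, minus strand. Nfkbiz stood at 0.193 FPKM for wild type and 0.408 for floxed cells at 24 h, then at 0.169 and 0.775 at 48 h. The log2(FPKM + 1) differences were 0.24 and 0.60, a scale that shrinks changes of weak genes. With q = 0.00874 and then q = 0.000165 in the authors' deposited table, Nfkbiz was called higher at both times, at levels under 1 FPKM in every group.

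Of the 5 subunit genes, Nfkb2 was called higher at both times, Rela and Relb were called higher and Nfkb1 lower at 48 h, and Rel was called at neither. Nfkb1 encodes a precursor that is cut to a DNA-binding subunit without an activation domain, Rela encodes the main activating subunit, and their products form the classical dimer. Nfkb1, on chromosome 3 from 135584655 to 135691547 (minus strand), stood at 45.2 FPKM for wild type and 36.5 for floxed cells at 24 h (q = 0.0904 in the authors' deposited table). At 48 h it stood at 42.5 and 31.6, 1.35-fold lower (q = 0.0201), and it was the only one of the 10 genes called lower. Rela, on chromosome 19 from 5637483 to 5648130 (plus strand), stood at 26.2 and 28.5 FPKM at 24 h (q = 0.578). At 48 h it stood at 26.4 for wild type and 43.9 for floxed cells, 1.66-fold higher with the smallest q. Both floxed groups were below wild type for Nfkb1, while for Rela only floxed cells at 48 h stood clear of the other 3 groups.

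Nfkb2 and Relb encode the subunits of the alternative pathway, in which the Nfkb2 precursor is processed after signals through receptors such as the lymphotoxin beta receptor. Nfkb2, on chromosome 19 from 46304320 to 46312385 (plus strand), stood at 4.65 FPKM for wild type and 6.88 for floxed cells at 24 h, then at 5.66 and 10.5 at 48 h. The fold was 1.48 at 24 h (q = 0.00185 in the authors' deposited table) and 1.85 at 48 h (q = 0.000165), both higher. Nfkb2 shares its locus entry with Psd, which stood at no more than 0.901 FPKM in any group, so the split of reads between them is uncertain. Psd was also higher in floxed cells at 48 h, at 0.152 for wild type and 0.901 for floxed cells (q = 0.0376). Relb, on chromosome 7 from 19606217 to 19629438 (minus strand), stood at 1.05 FPKM for wild type and 0.701 for floxed cells at 24 h (q = 0.0729). At 48 h it stood at 0.826 and 2.38 (q = 0.000165), a log2(FPKM + 1) difference of 0.89. Relb, like Tnfaip3, was called at the later time only and lay below wild type at the earlier one.

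Rel encodes an activating subunit best known from lymphocytes and lies on chromosome 11 from 23736847 to 23770970, minus strand. Rel stood at 4.87 FPKM for wild type and 5.97 for floxed cells at 24 h, then at 5.24 and 6.06 at 48 h. Neither difference was called (q = 0.174 and q = 0.352 in the authors' deposited table), although both floxed values were above both wild type values.

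**Figure D1:**
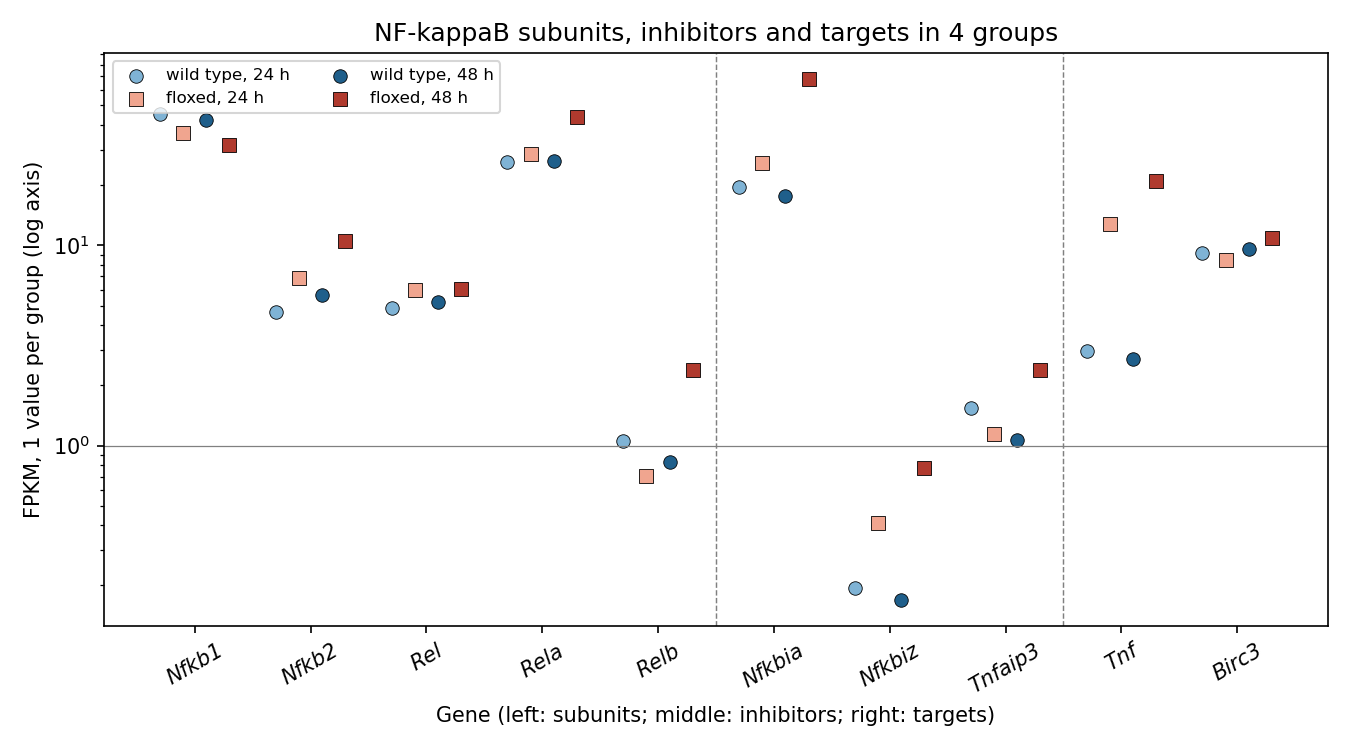
FPKM of the 10 genes on a log axis, 1 point per gene and group (circles wild type, squares floxed, light 24 h, dark 48 h); each point is the authors' group value, without an error bar. Tnf is separated by genotype at both times, whereas Rela, Relb, Nfkbia and Tnfaip3 stand clear of the other groups in floxed cells at 48 h, where Nfkbia reached 67.8 FPKM.

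Shares within a group were taken next, which multiplying a group by 1 factor leaves as they are; they were not recomputed under quantile normalization. Nfkb1 held 55.1% of the summed FPKM of the 5 subunits in wild type cells at 24 h and 52.7% at 48 h, against 46.5% and 33.5% in floxed cells. Rela held 32.0% and 32.7% in wild type cells and 36.3% and 46.5% in floxed cells. Floxed cells at 48 h were therefore the one group in which Rela RNA exceeded Nfkb1 RNA, at a ratio of 1.39 against 0.580 to 0.780 in the other groups. The ratio of Nfkb2 to Nfkb1 was 0.103 and 0.133 in wild type cells and 0.189 and 0.332 in floxed cells at 24 and 48 h. Relb held 2.52% in floxed cells at 48 h and 0.894% to 1.28% elsewhere. Summed over the 5 genes the level ranged less, from 78.5 to 94.4 FPKM. The ratio of Nfkbia to Rela was 0.749 and 0.670 in wild type cells, 0.905 in floxed cells at 24 h and 1.54 at 48 h. None of these ratios could be tested on 1 value per group.

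**Figure D2:**
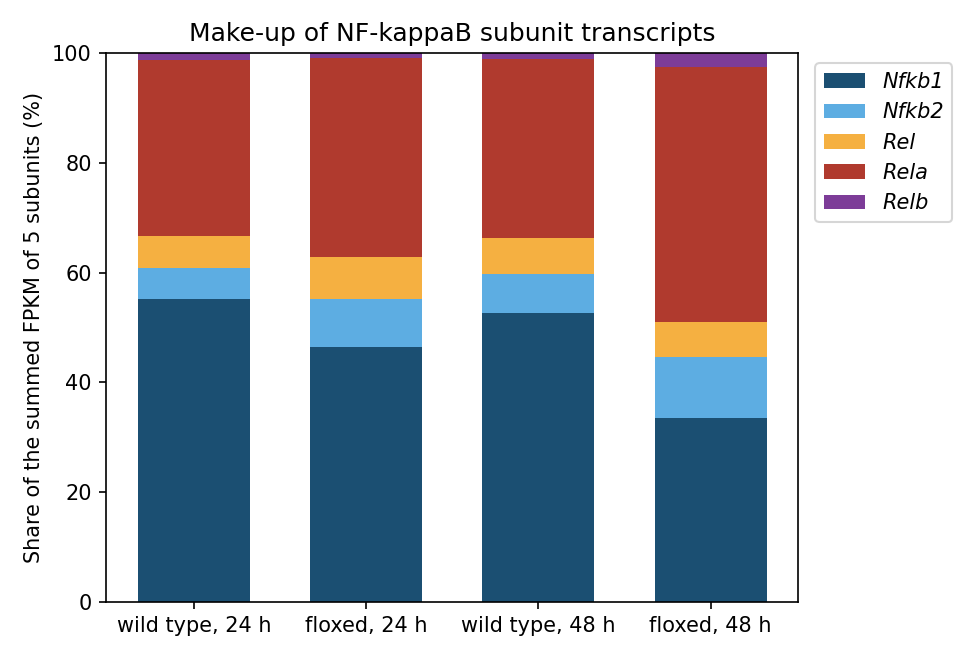
Share of each subunit gene in the summed FPKM of the 5 subunits (percent, stacked to 100) in each of the 4 groups. Nfkb1 shrinks from 52.7% in wild type to 33.5% in floxed cells at 48 h, while Rela grows from 32.7% to 46.5%.

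In wild type cells the order of levels was the same at both times for the 4 highest genes, Nfkb1, Rela, Nfkbia and Birc3, and for the 4 lowest, Tnf, Tnfaip3, Relb and Nfkbiz. Rel and Nfkb2 between them stood at 4.87 and 4.65 FPKM at 24 h and at 5.24 and 5.66 at 48 h. In floxed cells at 48 h Nfkbia came first, followed by Rela, Nfkb1 and Tnf. Without values per library it cannot be said which neighbours in these orders differ beyond their spread.

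Counts were read against the whole table. Of the 9 genes at 1 FPKM or more, 2 were called at 24 h, Nfkb2 and Tnf, both higher, where 27.6% of all 10987 tested genes were called in either direction, 13.4% higher and 14.2% lower. The 2 of 9 (22.2%) are near the share called in either direction and nothing is read from them. At 48 h, 7 of the 9 were called, where 56.8% of all 11039 tested genes were. Of these, 6 were higher, where 25.7% of all tested genes were higher, and Nfkb1 was lower, where 31% were. The median log2(FPKM + 1) difference over the 9 genes was 0.12 at 24 h and 0.71 at 48 h, and over all 11158 expressed genes it was -0.01 and -0.06. With at least 1.5-fold in FPKM + 1 also required, 1 gene was called at 24 h (Tnf) and 6 at 48 h. Of all tested genes, 10.2% and 38% were called by that rule. With Nfkbiz included, 3 of 10 and 8 of 10 genes were called, where 28.1% and 56.2% of all tested genes were called without a filter on low values.

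The floxed minus wild type difference was higher at 48 h than at 24 h for 8 of the 10 genes, as sizes without a test. The share of all expressed genes with such a rise was not computed. Their median absolute log2(FPKM + 1) difference was 0.21 at 24 h and 0.47 at 48 h, so differences widened across the whole table. The 48 h difference minus the 24 h difference, on the log2(FPKM + 1) scale, was largest for Nfkbia, whose differences were 0.38 and 1.88, and came to 1.16 for Relb, 0.95 for Tnfaip3, 0.77 for Tnf and 0.60 for Rela. It was -0.12 for Nfkb1 and -0.07 for Rel, and the median of the 9 expressed genes was 0.60 against -0.07 over all expressed genes. Within wild type cells, over the 8 genes at 1 FPKM or more at both times, the level at 48 h was between 0.691 (Tnfaip3) and 1.22 (Nfkb2) times that at 24 h. Within floxed cells it was 2.63 times for Nfkbia, 2.07 times for Tnfaip3 and 0.866 times for Nfkb1, and Relb went from 0.701 to 2.38 FPKM. Whether the authors scaled both times together is not stated, so values across times carry no call.

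**Figure D3:**
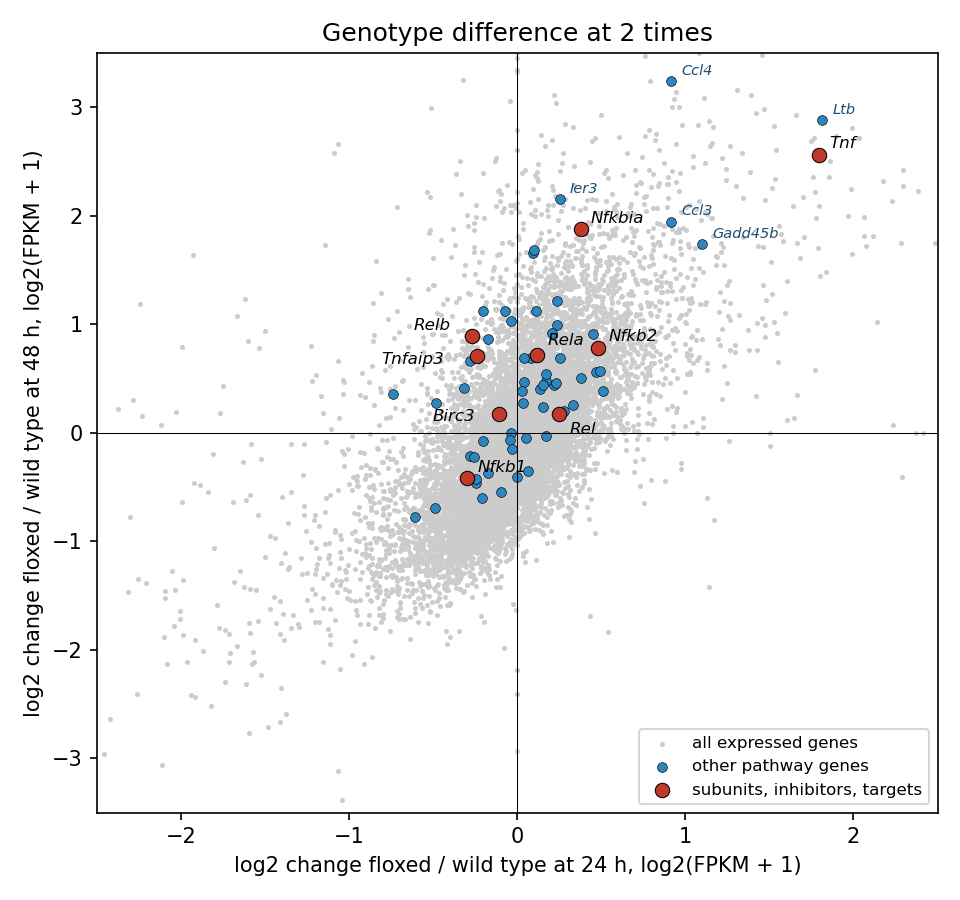
Genotype difference (floxed against wild type, log2(FPKM + 1)) at 24 h on the x axis and at 48 h on the y axis; grey points are the 11158 expressed genes (157 of them lie outside the axes), blue points other pathway genes and red points the 9 expressed subunits, inhibitors and targets. Tnf lies at 1.80 and 2.56 and Nfkbia at 0.38 and 1.88, while Relb and Tnfaip3 lie left of 0 at 24 h and above 0 at 48 h.

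The other genes of the pathway were taken from lists of 72 genes by role, of which 57 were expressed. At 24 h 9 were called higher and 4 lower (22.8% of the 57, against 27.6% of all tested genes), and at 48 h 33 were higher and 9 lower (73.7%, against 56.8%). Of all tested genes, 13.4% were higher and 14.2% lower at 24 h, and 25.7% were higher and 31% lower at 48 h. Their median log2(FPKM + 1) difference was 0.08 at 24 h and 0.44 at 48 h. Of the 57 genes, 9 were called higher at both times and 2 lower at both. The share of all tested genes called the same way at both times was not computed, so nothing is read from these counts. Up to 3 genes per list are named, those with the largest called difference at 48 h.

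All 4 remaining IkappaB family genes were called higher at 48 h, and 2 of them at 24 h, where 25.7% and 13.4% of all tested genes were. Nfkbid, a nuclear IkappaB protein, stood at 4.97 FPKM for wild type and 7.14 for floxed cells at 24 h, then at 4.59 and 9.50 at 48 h, 1.44-fold and 2.07-fold higher. Nfkbib, which encodes IkappaB-beta and shares its locus entry with another gene, was 1.32-fold higher at 24 h and 1.45-fold at 48 h. Bcl3, a nuclear coactivator of this family that lies 179 kb from Relb, stood at 5.31 and 5.47 FPKM at 24 h and was 1.46-fold higher at 48 h. The median difference of the 4 genes was 0.26 at 24 h and 0.49 at 48 h.

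Among 10 kinases and their partners, 2 were higher and 1 lower at 24 h, where 13.4% of all tested genes were higher and 14.2% lower. At 48 h 6 were higher and 1 lower, where 25.7% and 31% of all tested genes were. The median differences were 0.23 and 0.41. Map3k14, the kinase that starts the alternative pathway, stood at 0.764 FPKM for wild type and 1.08 for floxed cells at 24 h (q = 0.0561 in the authors' deposited table) and at 0.696 and 2.38 at 48 h. Ikbkb, the main IkappaB kinase, stood at 17.3 and 20.8 FPKM at 24 h without a call and was 1.65-fold higher at 48 h. Tab1, a partner of the upstream kinase encoded by Map3k7, went the other way and was lower by 1.62-fold at 24 h and by 1.87-fold at 48 h.

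Adaptors were mixed. Of 12 expressed, 1 was higher and 0 lower at 24 h, against 13.4% and 14.2% of all tested genes. At 48 h 3 were higher and 5 lower, against 25.7% and 31%. The medians were 0.03 and -0.04. Myd88, the adaptor of Toll-like and interleukin 1 receptors, stood at 39.1 FPKM for wild type and 42.2 for floxed cells at 24 h and was 2.21-fold higher at 48 h, at 36.5 and 80.8. Irak4, a kinase that binds Myd88, was 1.49-fold lower at 48 h, at 18.3 and 12.2. Birc2, given above, was the gene called at 24 h.

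Of 12 other negative regulators, 0 were called at 24 h, against 27.6% of all tested genes. The smallest q of the list at that time in the authors' deposited table was 0.131 (Tnip2). At 48 h 6 were higher and 2 lower, against 25.7% and 31% of all tested genes. The medians were 0.03 and 0.29. Rnf11, a partner of Tnfaip3 in its ubiquitin-editing complex, stood at 19.3 and 22.9 FPKM at 24 h and was 2.39-fold higher at 48 h. Zc3h12a, an RNase that degrades inflammatory mRNAs, was 1.82-fold higher and Itch, a ubiquitin ligase, 1.56-fold lower at 48 h. Of the 6 TNF family receptors 3 were expressed, with 1 called lower at 24 h and 2 higher at 48 h. Of all tested genes, 14.2% were lower at 24 h and 25.7% higher at 48 h. The medians of the receptors were -0.32 and 0.41. Ltbr, the lymphotoxin beta receptor, stood at 42.2 and 41.1 FPKM at 24 h and was 2.08-fold higher at 48 h, at 37.8 and 78.5. Tnfrsf1a, the main TNF receptor, stood at 98.6 for wild type and 79.1 FPKM for floxed cells at 24 h without a call, and was 1.34-fold higher at 48 h.

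Other induced targets had more calls at 48 h, as did the whole table. Of 27 listed, 16 were expressed, with 4 higher and 2 lower at 24 h and 12 higher and 1 lower at 48 h, where 13.4% and 25.7% of all tested genes were called higher. The median differences were 0.10 and 1.12. Ccl4, a chemokine for monocytes and lymphocytes, stood at 2.67 FPKM for wild type and 5.92 for floxed cells at 24 h, then at 2.11 and 28.4 at 48 h, 2.22-fold and 13.4-fold higher. Ltb was given above. Ier3, a survival gene, stood at 11.5 and 13.9 FPKM at 24 h without a call and at 9.10 and 43.9 at 48 h, 4.82-fold higher.

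**Figure D4:**
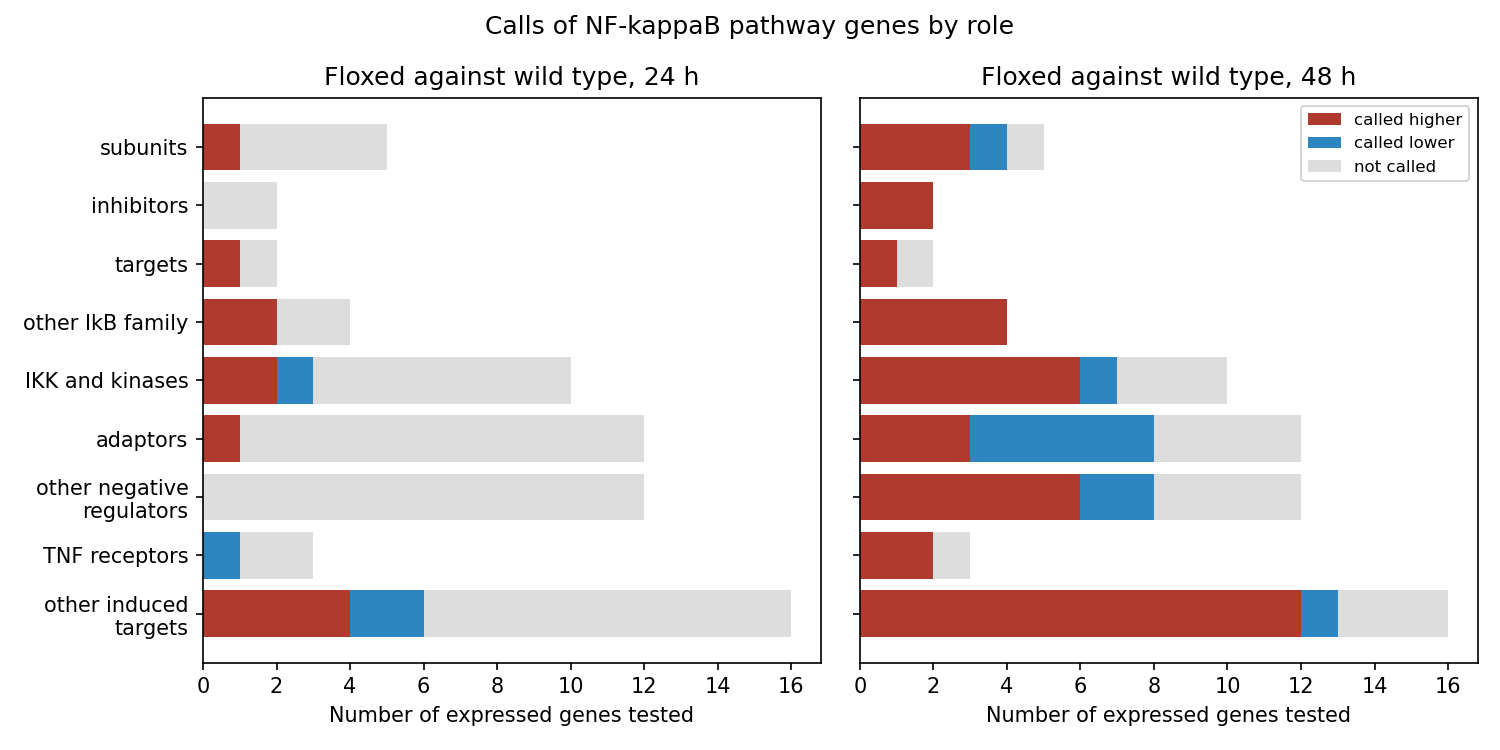
Number of expressed and tested genes in each role that were called higher (red), lower (blue) or not called (grey) in floxed against wild type cells at 24 h (left) and 48 h (right). Other induced targets go from 4 to 12 genes called higher, and adaptors show 3 higher and 5 lower at 48 h.

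Markers of cell type moved with the same comparison. Of the 7 myeloid markers, 1 was called higher (Mpo) and 1 lower (Cebpa) at 24 h, against 13.4% and 14.2% of all tested genes. At 48 h 4 of the 7 were higher and 2 lower, against 25.7% and 31%. Their summed level was 5696 FPKM for wild type and 6109 for floxed cells at 24 h, then 5713 and 6339 at 48 h. Itgam stood at 45.8 and 100.1 FPKM and Lyz2 at 587 and 3333 at 48 h, while Mpo stood at 1368 and 1011 and was called lower. Mpo thus changed direction, since at 24 h it stood at 1145 for wild type and 1986 for floxed cells. Elane, the highest of them in wild type cells, stood at 3587 and 1745 at 48 h and was called lower, in a locus entry of 46 genes. The sum thus joins a lower Elane with a higher Lyz2. Of the 5 B cell markers only Cd79b was expressed, at 0.890 and 8.21 FPKM at 24 h and 1.06 and 5.90 at 48 h, called higher at both times. Pax5 was at 0, and the summed level of the list ranged from 0.902 to 8.38 FPKM. Of the 5 erythroid markers only Gata1 reached 1 FPKM. It stood at 0.0723 FPKM for wild type and 0.856 for floxed cells at 24 h, then at 0.174 and 2.08 at 48 h, and was called higher at both times, with Hbb-b1 at 0 and a summed level from 0.578 to 2.73. Of the 6 stromal and endothelial markers only Pecam1 was expressed, called lower at both times, with a summed level from 2.47 to 6.94. The summed T and NK cell level was at most 0.248. What part these markers have in the differences of the NF-kappaB genes was not tested.

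By likeness of pattern, the nearest genes to Nfkbia among 8739 genes of at least 5 FPKM were Fmnl1, Glrx, Map1lc3b, Ccdc109b and 1100001G20Rik. Likeness was the Euclidean distance of 4 group values of log2(FPKM + 1), each centred on its own mean, and these 5 lay at 0.07 to 0.09. Fmnl1, which encodes a formin of blood cells, stood at 28.3 FPKM for wild type and 36.3 for floxed cells at 24 h, then at 25.6 and 91.3 at 48 h. It was called at 24 h at 1.28-fold (q = 0.0421 in the authors' deposited table), where Nfkbia at 1.31-fold was not. Among the subunits and targets at that level, Nfkb2 was nearest to Nfkbia, at a distance of 0.81, and Nfkb1 farthest, at 1.85. They ranked 717 and 5991 among 8738 genes by nearness, so many other genes lay closer than Nfkb2. Relb, Tnfaip3 and Nfkbiz did not reach 5 FPKM and were not ranked.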

How the data were processed

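Poly(A) RNA of 8 libraries was measured by sequencing. The submitters' processing notes name Cufflinks 2.1, Cuffdiff, Bowtie2 and build mm10, with no role or order. Per the file headers, the table deposited by the authors has 1 FPKM value for each gene in each group, relative to transcript length and all other RNA, so total RNA per cell is out of its reach. At each time it adds the authors' q-value (an adjusted p-value) of the genotype comparison. The sources used here do not give the counting annotation or strandedness.

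A test over libraries needs values the table does not hold, so calls are the authors' q under 0.05, taken over all genes. Groups came from the sample titles, and replicates could not be compared. Left out were 27 of 23361 rows whose names had become date numbers. A gene was expressed at 1 FPKM or more in a group and tested where q was under 1. Log2 differences used a pseudocount of 1, and folds are given where both groups reach 1 FPKM. Relative depth was looked for in low values: the most common ratio of floxed to wild type values, over genes under 0.05 FPKM in both, was 0.834 at 24 h and 1.07 at 48 h, which equals the relative worth of 1 fragment only if those genes hold single fragments, and this was not tested. Coordinates are 1-based, from GENCODE M21 on the assembly of mm10. Alternatives were q under 0.01, at least 1.5-fold in FPKM + 1, filters of 5 FPKM or none, pseudocounts of 0.1 and 5, and 3 rescalings. Calculations used Python 3.11.15 with numpy 2.4.6, pandas 2.3.3 and matplotlib 3.10.9, and were tested on simulated data. The genes, lists and naming rule (all 10 genes, and up to 3 per other list by the largest called difference at 48 h) were chosen with earlier results of these data known. One erythroid marker is not reported here.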

Additional observations from a re-analysis of the deposited data

How the results depend on the processing

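No paired analysis was possible because the table holds 1 value per group, and leaving out a replicate was not run for the same reason. Each of the 20 differences of the 10 genes at 2 times kept its sign under 3 rescalings. They were also recomputed with 2 other pseudocounts, which cannot change a sign, so only the rescaled values among the 100 recomputed could have moved. With at least 1.5-fold in FPKM + 1 also required, 1 of 9 genes, Tnf, was called at 24 h. At 48 h 6 of 9 were, and of all tested genes 10.2% and 38% were. With q under 0.01 the counts were 2 of 9 and 6 of 9, against 18.2% and 46.2% of all tested genes. Among genes of at least 5 FPKM they were 2 of 7 and 5 of 7, against 25.6% and 56.7%. With no filter they were 3 of 10 and 8 of 10, against 28.1% and 56.2%. The median difference at 24 h was 0.25 among genes of at least 5 FPKM and 0.18 with no filter, and at 48 h 0.34 with a pseudocount of 5. The median change of the difference between times was 0.37 with a pseudocount of 5 and 0.30 among genes of at least 5 FPKM. Rescaling to the same FPKM sum moved it to 0.48 and moved that of all genes from -0.07 to -0.18. The wild type median between times was -0.09, and it was -0.0483 with a pseudocount of 5 and 0.0110 among genes of at least 5 FPKM. The cause of these moves was not tested. Without counts or values per library, no interval or detection limit could be set.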

Other observations

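Survival and cytokine genes among the induced targets were described after their values were seen. Of the Bcl2a1 paralogs, which encode an apoptosis inhibitor of blood cells, Bcl2a1a was called lower at both times, at 15.3 FPKM for wild type and 10.7 for floxed cells at 24 h, then at 12.4 and 7.25 at 48 h. Bcl2a1b stood at 3.27 and 1.56 at 24 h, where it was called lower, and at 1.76 and 2.54 at 48 h, where it was not called. These copies are nearly identical, so how reads were split among them is uncertain. Bcl2l1, another inhibitor of apoptosis, stood at 14.6 and 17.0 at 24 h without a call and was 1.96-fold higher at 48 h. Sod2, the mitochondrial superoxide dismutase, stood at 35.2 and 34.6 at 48 h and Cflar, which blocks caspase activation, at 10.9 and 13.4, neither with a call.

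Ccl3, a chemokine gene 13.2 kb from Ccl4, stood at 25.8 FPKM for wild type and 49.4 for floxed cells at 24 h, then at 27.0 and 107 at 48 h, called higher at both times. Gadd45b, a stress-response gene, was 2.21-fold higher at 24 h and 3.47-fold at 48 h. Tnfrsf1b, the second TNF receptor, was 1.42-fold lower at 24 h and stood at 23.3 and 28.5 at 48 h without a call.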
